A study of Mus musculus with 2 samples.

Results

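The genes described here encode the subunits, activators and assembly chaperones of the proteasome. They were taken as every gene whose symbol begins with Psma, Psmb, Psmc, Psmd, Psme, Psmf or Psmg followed by a number, which gave 49 of the 27998 genes listed. Their transcripts were counted in CD8+ T cells from OT-I mice. Their T cell receptor transgene recognises SIINFEKL, a peptide of ovalbumin. Spleens and lymph nodes came from mice aged 8 to 12 weeks, and the cell suspensions were activated with that peptide and 100 U/ml IL-2 over 48 h before transfer to expansion medium. Cells of the transient glucose restriction (TGR) library were then held in 1 mM glucose for 20 h. Cells of the control library were held in 11 mM glucose for the same time. Peptide, IL-2 and mouse strain were shared by both conditions, and a second label field gives 3 days of growth before the exposure. The comparison asks how proteasome transcripts differ between T cells held in low and in high glucose.

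The proteasome is the barrel-shaped protease that degrades ubiquitin-tagged proteins. Its core particle stacks rings of alpha subunits, which form the gate, on rings of beta subunits, some of which carry the cutting sites, and the regulatory particle recognises, deubiquitinates, unfolds and feeds in the substrate through a base of ATPases and a lid. In lymphocytes and under interferon, 3 inducible beta subunits replace the constitutive catalytic ones to form the immunoproteasome, and an alternative cap of Psme1 and Psme2 can take the place of the regulatory particle; both are known for their part in making peptides for MHC class I. Activated T cells make and degrade protein at a high rate.

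There was 1 library per condition, so no difference below has a replicate check, no p-value is given, and every interval is a 95% interval of counting error only. Of 2548 TGR and 3336 control barcodes, 2546 and 3127 had at least 500 genes and under 10% mitochondrial UMIs (unique molecular identifiers, each standing for 1 captured transcript). All of the 209 control barcodes that were removed exceeded the mitochondrial limit. The kept cells held 19696068 TGR and 14730128 control UMIs, with a median of 6265.5 UMIs per cell under TGR and 4030 in control. Whether that gap reflects RNA per cell or capture cannot be told apart. Of the kept barcodes, 9 occur in both libraries. CD8 T cell markers (Cd8a, Cd8b1, Cd3d, Cd3e, Cd3g) summed to 1838 CPM (counts per 1000000 UMIs of the library) in TGR and 2288 CPM in control cells. The myeloid markers Itgax and Adgre1 had 0 UMIs in both libraries, and Cd4 had 1.32 CPM under TGR and 1.29 CPM in control. Cst3, which leads the myeloid list but is not specific to it, had 58.4 CPM under TGR and 115 CPM in control. The median share of a cell's UMIs on cytosolic ribosomal protein genes was 49.9% under TGR and 40.1% in control, a difference that moves with the results below. More TGR than control cells were called in G1, at 1462 of 2546 under TGR and 337 of 3036 in control.

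Proteasome transcripts made up a smaller share of the transcriptome in glucose-restricted cells. All members together had 4297 CPM under TGR and 7777 CPM in control, a 1.81-fold lower level (interval 1.79 to 1.83). A gene was scored at 10 CPM or more in either library, and called lower or higher at 1.5-fold or more with an interval that leaves out a ratio of 1. Of the 47 members scored, 36 were called lower and 0 higher, against 21.8% of all 6667 scored genes called lower and 9.33% called higher. The median log2 ratio (TGR over control) of the members was -0.96, and that of all scored genes was -0.16. At least 2-fold lower levels were found for 21 members, against 7.87% of all scored genes, and at least 2-fold higher levels for 0, against 3.31%.

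The result moved with ribosomal protein content and, less, with the choice of total. Cells were also compared within bands of ribosomal protein share, a comparison added after the data were seen. The bands narrow the gap in that share but do not make it equal. In the low, middle and high band, 16, 13 and 5 members were called lower, against 6%, 11.9% and 6.8% of all genes scored there. With totals that leave out ribosomal protein and mitochondrial genes, 27 of 47 members were called lower and 0 higher, against 10.1% and 23% of all genes, and the all-gene median was 0.17 in place of -0.16. The members' median lay 0.87 log2 units below the all-gene median on that scaling and 0.81 below it on the first. Counted per cell and not as CPM, the members had 33.2 UMIs in a TGR cell and 36.6 in a control cell, while all genes together had 7736 UMIs in a TGR cell and 4711 in a control cell. Per cell, 33 of the scored members had fewer UMIs under TGR and 14 had more. The 14 include Psmb9, Psmd14 and Psmg3, which were called lower by CPM. Their UMIs per cell under TGR were 1.01, 1.02 and 1.09 times those in control.

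**Figure D1:**
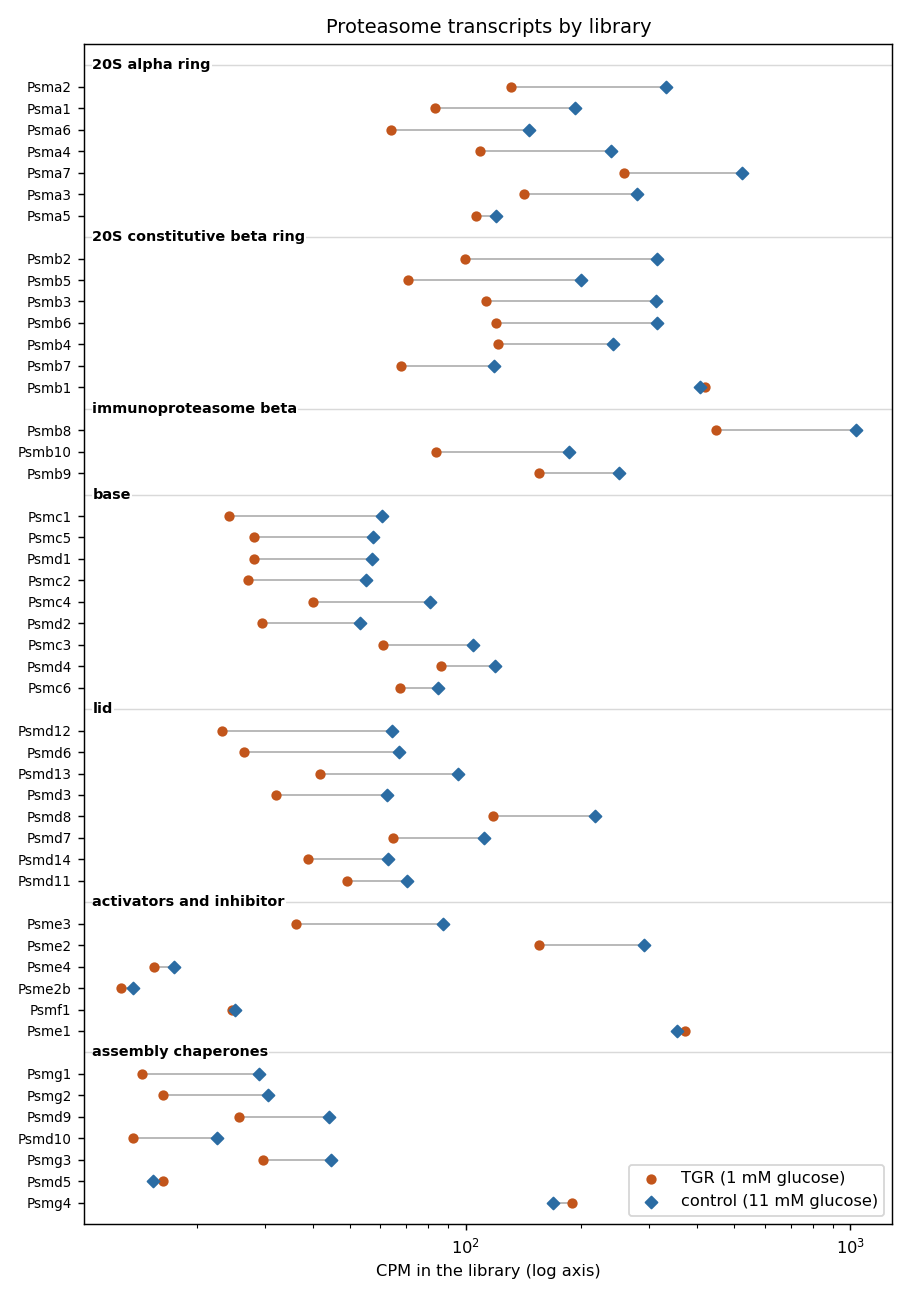
CPM (log axis) of each scored proteasome gene in the TGR and control library, grouped by subcomplex. The TGR point lies left of the control point for 43 genes; Psmb1, Psme1, Psmd5 and Psmg4 are the exceptions.

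The alpha ring, which gates entry to the core, was lower as a group. Its 7 genes summed to 894 CPM under TGR and 1831 CPM in control, 2.05-fold lower (interval 2.01 to 2.09), and 6 of 7 were called lower with a median log2 ratio of -1.13. Psma2 had the lowest ratio, with 131 CPM in TGR cells and 332 CPM in control cells, 2.53-fold lower (interval 2.42 to 2.66). Psma2 shares 8943 annotated bases on the same strand with AW209491, which had 116 UMIs under TGR and 76 in control. The handling of reads there was not given, so the Psma2 counts are uncertain to that extent. Psma7, the alpha gene with most UMIs, had 259 CPM under TGR and 523 CPM in control, 2.02-fold lower. Psma1, Psma6, Psma4 and Psma3 lay between 1.96-fold and 2.31-fold lower. Psma5 stood apart from its ring, with 106 CPM under TGR and 120 CPM in control and a log2 ratio of -0.17, close to the all-gene median. Its UMIs per cell were higher under TGR, at 0.824 under TGR and 0.564 in control.

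The constitutive beta ring held both the lowest ratio of the scored members and 1 of the 4 ratios above 1. Its 7 genes summed to 1011 CPM under TGR and 1908 CPM in control, 1.89-fold lower (interval 1.85 to 1.92). Psmb1 alone supplied 418 of those CPM under TGR and 407 in control, which raises the summed ratio. Of the 7 genes, 6 were called lower, and the median log2 ratio was -1.39. Psmb2, a beta subunit without a cutting site (chr4:126677630-126709714, plus strand, GRCm38), had 99.8 CPM under TGR and 315 CPM in control, 3.15-fold lower (interval 2.99 to 3.33). Psmb3, also without a cutting site, had 113 CPM under TGR and 312 CPM in control, 2.76-fold lower (interval 2.62 to 2.91). Both also had fewer UMIs per cell under TGR, with a per-cell ratio (TGR over control) of 0.521 for Psmb2 and 0.595 for Psmb3. Psmb4 had 121 CPM under TGR and 242 CPM in control, a log2 ratio of -0.996. Psmb1 did not share this pattern. It had 418 CPM under TGR and 407 CPM in control, with a ratio of 1.03 (interval 0.993 to 1.06), while the other beta ring members lay between -1.66 and -0.80 log2 units.

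The constitutive catalytic subunits were all called lower, to unequal degrees. Psmb5, which carries the chymotrypsin-like site (chr14:54614119-54618022, minus strand), had 70.7 CPM under TGR and 200 CPM in control, 2.83-fold lower (interval 2.65 to 3.02). Psmb6, which carries the caspase-like site (chr11:70525367-70527858, plus strand), had 120 CPM under TGR and 314 CPM in control, 2.62-fold lower (interval 2.49 to 2.75). Psmb7, which carries the trypsin-like site (chr2:38588036-38644087, minus strand), had 68.0 CPM under TGR and 118 CPM in control, 1.74-fold lower (interval 1.62 to 1.87). The intervals of Psmb5 and Psmb6 overlap and that of Psmb7 lies apart from both.

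The promoters of Psmb5 and Psmb6 are shown because both genes carry the letters TGACNNNGC, the core of the antioxidant-type element bound by NFE2-related factors, which are known to drive proteasome genes. Sequences are RefSeq windows on GRCm38.p6, from 250 bases before to 50 bases after the annotated start, printed 5′ to 3′ on the gene's strand with the match in capitals; Psmb5 is at chr14:54617946-54618245 (minus strand) and Psmb6 at chr11:70525107-70525406 (plus strand).
Psmb5: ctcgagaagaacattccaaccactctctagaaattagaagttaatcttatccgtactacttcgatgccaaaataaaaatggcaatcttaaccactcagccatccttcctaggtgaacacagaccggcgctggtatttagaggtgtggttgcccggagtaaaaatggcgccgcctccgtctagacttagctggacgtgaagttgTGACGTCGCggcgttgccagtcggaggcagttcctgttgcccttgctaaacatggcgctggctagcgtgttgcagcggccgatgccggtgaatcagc
Psmb6: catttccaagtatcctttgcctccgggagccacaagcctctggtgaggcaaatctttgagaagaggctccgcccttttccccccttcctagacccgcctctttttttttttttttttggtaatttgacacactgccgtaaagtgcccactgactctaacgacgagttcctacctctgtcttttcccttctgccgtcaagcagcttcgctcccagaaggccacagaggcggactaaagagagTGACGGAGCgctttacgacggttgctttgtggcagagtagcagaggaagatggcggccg
Of the 49 members, 41 had a RefSeq window. Searched on both strands, the motif was found in 6 of these 41 genes, and in 14.0% of all 27025 genes with a window, so the members' share was close to the background. The 6 genes were Psmb5, Psmb6, Psmd12 and Psmd9, which were called lower, and Psmc6 and Psme4, which were not.

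All 3 inducible beta subunits of the immunoproteasome were called lower. They summed to 685 CPM under TGR and 1470 CPM in control, 2.15-fold lower (interval 2.10 to 2.19). Psmb8, the inducible counterpart of Psmb5 (chr17:34197721-34201454, plus strand), had the most UMIs of any member when not scaled by transcript length, with 447 CPM under TGR and 1034 CPM in control, 2.31-fold lower (interval 2.25 to 2.38). Without Psmb8 the summed log2 ratio of all members was -0.81 in place of -0.86. Psmb10, the inducible counterpart of Psmb7 (chr8:105935735-105938444, minus strand), had 83.5 CPM under TGR and 186 CPM in control, 2.23-fold lower (interval 2.09 to 2.37). Psmb9, the inducible counterpart of Psmb6 (chr17:34181987-34187764, minus strand), had 155 CPM under TGR and 251 CPM in control, 1.62-fold lower (interval 1.54 to 1.70). Its UMIs per cell were 1.20 under TGR and 1.18 in control. Psmb9 shares 212 annotated bases with Tap1 on the opposite strand, and whether the counting used strand was not given in the sources used here. Tap1, a subunit of the peptide transporter, differed the other way, with 160 CPM under TGR and 108 CPM in control, a ratio of 1.48 that fell short of the call.

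The balance of inducible to constitutive catalytic subunits differed little in sum, and the 3 pairs did not move alike. A ratio of UMIs within a library needs no scaling, but it is not per transcript length. Its level therefore does not give subunit proportions, and only its change between libraries is compared. Psmb8 over Psmb5 was 6.32 under TGR and 5.17 in control, 1.22 times as high (interval 1.14 to 1.31). Psmb9 over Psmb6 was 1.29 under TGR and 0.799 in control, 1.61 times as high (interval 1.51 to 1.73). Psmb10 over Psmb7 was 1.23 under TGR and 1.57 in control, a ratio of 0.782 (interval 0.711 to 0.860). The Psmb10 over Psmb7 interval included 1 in cells called G1 (0.912, interval 0.725 to 1.14) and in the middle UMI band (0.948, interval 0.799 to 1.13), and in the low UMI band the direction turned (1.02, interval 0.761 to 1.36). Over the 3 pairs together the ratio was 2.65 under TGR and 2.33 in control, 1.14 times as high (interval 1.09 to 1.18). That sum turned to 0.790 in the high band of ribosomal protein share (interval 0.624 to 0.994) and was 1.02 in the middle band (interval 0.945 to 1.10). Psmb8 over Psmb5 had a change of 1.03 in the middle band (interval 0.903 to 1.17), and it turned to 0.882 in the low band (interval 0.564 to 1.43), 0.840 in the high band (interval 0.559 to 1.23) and 0.930 in the low UMI band (interval 0.755 to 1.15). The Psmb9 over Psmb6 change was 1.23 in the low band (interval 0.769 to 1.95), 1.45 in the middle band (interval 1.28 to 1.64) and 1.23 in the high band (interval 0.808 to 1.87). The Psmb10 over Psmb7 change was 0.8503 in the low band (interval 0.454 to 1.61), 0.777 in the middle band (interval 0.651 to 0.928) and 0.590 in the high band (interval 0.325 to 1.04).

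The base, whose ATPases unfold the substrate, was called lower for 7 of 9 genes. It summed to 392 CPM under TGR and 672 CPM in control, 1.71-fold lower (interval 1.66 to 1.77). Psmc1, an ATPase, had the lowest ratio, with 24.3 CPM under TGR and 60.4 CPM in control, 2.49-fold lower (interval 2.22 to 2.79). The ATPases Psmc2, Psmc4 and Psmc5 and the scaffold subunit Psmd1 had log2 ratios of -1.02 to -1.004, and the ATPase Psmc3 and the scaffold subunit Psmd2 had -0.78 and -0.84. The 2 base genes short of the call were Psmc6, an ATPase, and Psmd4, a ubiquitin receptor. Psmc6 had 67.5 CPM under TGR and 84.9 CPM in control, a log2 ratio of -0.33. Psmd4, the base gene with most UMIs, had 86.3 CPM under TGR and 119 CPM in control, a log2 ratio of -0.47.

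The lid, which removes ubiquitin from the substrate, was called lower for 7 of 8 genes. It summed to 394 CPM under TGR and 751 CPM in control, 1.91-fold lower (interval 1.85 to 1.96). The scaffold subunit Psmd12 had 23.3 CPM under TGR and 64.4 CPM in control, 2.76-fold lower (interval 2.47 to 3.09). Psmd6 and Psmd13, also scaffold subunits, were 2.53-fold and 2.27-fold lower. Psmd8, the lid gene with most UMIs, had 118 CPM under TGR and 217 CPM in control, 1.84-fold lower (interval 1.74 to 1.94). Psmd14, the deubiquitinase of the lid, and its partner Psmd7 were among the less affected, at 1.61-fold and 1.73-fold lower. Psmd11 had 49.0 CPM under TGR and 70.3 CPM in control, 1.43-fold lower and just short of the call.

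**Figure D2:**
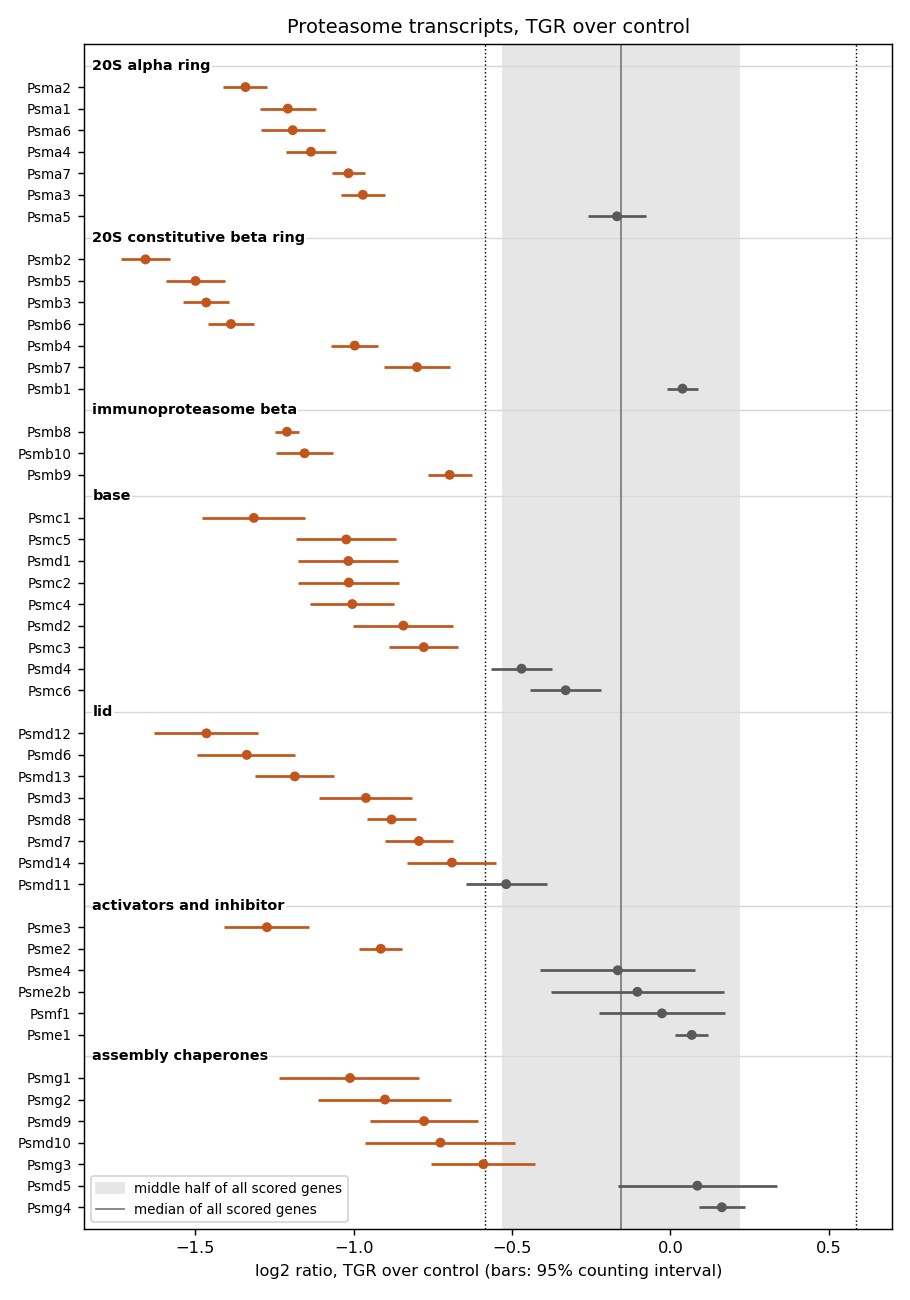
log2 ratio (TGR over control) of each scored proteasome gene, with 95% counting intervals, by subcomplex. The lowest point is Psmb2 at -1.66 and the highest is Psmg4 at 0.16; most core, base and lid genes lie below the all-gene median of -0.16.

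The alternative caps and the inhibitor differed among themselves, with 2 of 6 genes called lower. Psme3, which forms a cap found mainly in the nucleus, had 36.1 CPM under TGR and 87.3 CPM in control, 2.42-fold lower (interval 2.205 to 2.65). Psme2, the beta subunit of the interferon-inducible cap, had 155 CPM under TGR and 292 CPM in control, 1.88-fold lower (interval 1.80 to 1.97). Its partner Psme1, the alpha subunit of the same cap, did not differ in that way, with 371 CPM under TGR and 355 CPM in control, a ratio of 1.05 (interval 1.01 to 1.09). Psme1 shares 14 annotated bases with Emc9 on the opposite strand. Psme4, a large single-chain cap, had 15.5 CPM under TGR and 17.4 CPM in control, and Psmf1, described as a proteasome inhibitor, had 24.7 CPM under TGR and 25.2 CPM in control. Psme2b, a near copy of Psme2 that lies inside another annotated gene on the same strand, had 12.7 CPM under TGR and 13.6 CPM in control; its counts are uncertain because reads of both copies can be hard to tell apart. The group summed to 615 CPM under TGR and 790 CPM in control.

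Psme1 and Psme2 lie close together on chromosome 14, at chr14:55578123-55581529 (plus strand) and chr14:55587441-55591113 (minus strand), yet the pair separated under TGR. Psme1 over Psme2 UMIs were 2.40 under TGR and 1.22 in control, 1.97 times as high (interval 1.86 to 2.09). The change was 1.58 in cells called G1 (interval 1.36 to 1.84), 2.05 in S (interval 1.75 to 2.41) and 2.10 in G2/M (interval 1.91 to 2.29). Within bands of ribosomal protein share it was 1.41 in the low band (interval 0.981 to 2.05), 1.53 in the middle band (interval 1.37 to 1.70) and 1.16 in the high band (interval 0.840 to 1.58), so the interval left out a ratio of 1 in the middle band alone. The promoter windows of the pair are printed from the same RefSeq table; capitals mark an interferon-type element, GAAA followed after any 2 bases by GAAA, read on the opposite strand. Psme1 is at chr14:55578244-55578543 (plus strand) and the Psme2 window, 1 of 2 annotated, is at chr14:55591052-55591351 (minus strand). The whole Psme1 window lies inside the gene span given above, which comes from GENCODE and not RefSeq.
Psme1: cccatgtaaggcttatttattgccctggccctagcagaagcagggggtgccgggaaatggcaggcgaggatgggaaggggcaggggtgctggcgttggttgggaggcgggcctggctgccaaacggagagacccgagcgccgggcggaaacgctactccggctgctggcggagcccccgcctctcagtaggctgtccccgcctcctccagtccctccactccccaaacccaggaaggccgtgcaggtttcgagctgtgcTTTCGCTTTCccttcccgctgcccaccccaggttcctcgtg
Psme2: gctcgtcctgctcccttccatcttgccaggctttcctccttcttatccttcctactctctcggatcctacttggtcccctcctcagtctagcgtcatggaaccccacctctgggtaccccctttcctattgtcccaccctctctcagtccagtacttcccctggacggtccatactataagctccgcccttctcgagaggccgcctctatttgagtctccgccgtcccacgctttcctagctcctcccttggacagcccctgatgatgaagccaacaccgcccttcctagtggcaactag
The letters occur in the Psme1 window and in neither of the 2 Psme2 windows. They were found in 5 of the 41 member genes with a window (Psmb3, Psmd4, Psmd9, Psme1 and Psmg4) and in 3.99% of all genes with one. Of the 5, 2 were called lower and 3 were not.

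Assembly chaperones, which build the particle and leave it, were called lower for 5 of 7 genes, with a median log2 ratio of -0.73. Their summed difference was the smallest of the groups, with 305 CPM under TGR and 355 CPM in control. Psmg4 alone supplied 189 of those CPM under TGR and 169 in control, so the sum mostly follows that gene. Psmg1, which pairs with Psmg2 to start the alpha ring, had 14.4 CPM under TGR and 29.0 CPM in control, 2.02-fold lower (interval 1.73 to 2.35). Psmg2 was 1.87-fold lower (interval 1.62 to 2.16). Psmg4, which pairs with Psmg3 in ring assembly, had the highest ratio of the scored members, with 189 CPM under TGR and 169 CPM in control, a ratio of 1.12 (interval 1.06 to 1.18). Psmg3 did not follow its partner, with 29.7 CPM under TGR and 44.7 CPM in control, 1.51-fold lower and just past the call; it overlaps an annotated gene on the same strand that had 0 UMIs in both libraries, so its counts are uncertain. Of the chaperones of the base, Psmd9 and Psmd10 were 1.71-fold and 1.65-fold lower, and Psmd5 had 16.3 CPM under TGR and 15.4 CPM in control. The thymus subunit Psmb11 had 0 UMIs in both libraries, and the testis subunit Psma8 had 0 UMIs under TGR and 1 in control; neither was scored.

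As CPM, most of the difference was present within each phase of the cell cycle, called from cycle genes on cells thinned to 1500 UMIs. Members called lower numbered 32 in G1, 34 in S and 37 in G2/M, with 0 higher in each, and 29 were lower in all 3 phases. Of all genes scored in the same cells, 20.3%, 19.1% and 21.3% were called lower in G1, S and G2/M, and 7.74%, 11.2% and 11.8% higher. All members summed to 4465 CPM under TGR and 7604 CPM in control in G1, 4192 CPM under TGR and 8091 CPM in control in S, and 4098 CPM under TGR and 7756 CPM in control in G2/M. Counted per cell, the members were not lower under TGR in G1 (30.2 UMIs under TGR and 29.5 in control). The per-cell values were 35.3 under TGR and 34.7 in control in S, and 38.3 under TGR and 39.2 in control in G2/M. Psmb2, for example, had 104 CPM under TGR and 302 CPM in control in G1, and 89.2 CPM under TGR and 311 CPM in control in G2/M. The assembly chaperones were the group with fewest calls in G1, at 1 of 7, against 4 in S and 5 in G2/M. That count rests on 337 control cells, with 32, 32 and 60 control UMIs for Psmg1, Psmd10 and Psmg3. Their log2 ratios in G1 were -0.54, -0.53 and -0.52, just short of the 1.5-fold call, and Psmg2 had -0.24 from 26 control UMIs. Psmg1 had 16.8 CPM under TGR and 24.4 CPM in control in G1, and 10.8 CPM under TGR and 29.8 CPM in control in G2/M. Psmd4 was called lower in G1 only, and Psmd11 in G2/M only. Whether these phase differences exceed the spread between libraries was not tested.

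**Figure D3:**
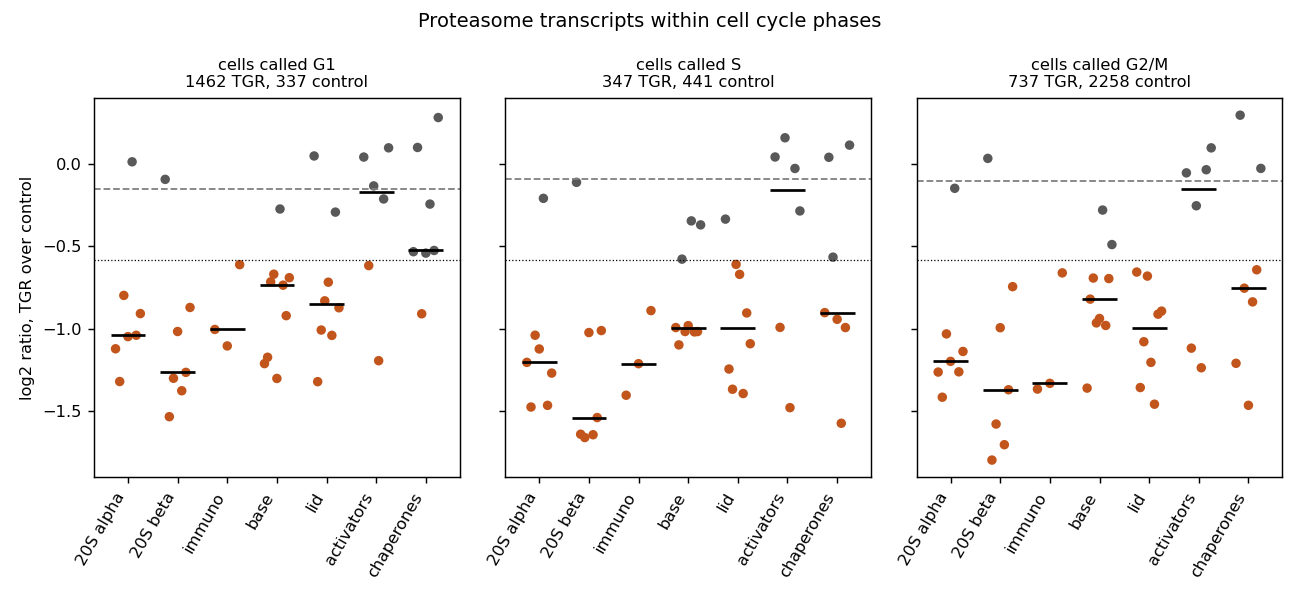
log2 ratio (TGR over control) of each scored proteasome gene within cells called G1, S and G2/M, by subcomplex. The members' medians are -0.83, -1.01 and -0.97 in G1, S and G2/M.

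Cells of like total depth also differed between the libraries, with more members called in deeper cells. In bands of UMIs per cell shared by both libraries, the members called lower numbered 29 of 47 in the low band, 33 in the middle and 36 in the high band. The share of all scored genes called lower was 19.0%, 24.2% and 24.3% in the same bands, and 10.3%, 11.5% and 10.9% were called higher. The summed level was 4925 CPM under TGR and 7646 CPM in control in the low band, 4787 CPM under TGR and 8125 CPM in control in the middle band, and 4069 CPM under TGR and 7582 CPM in control in the high band.

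Bands of ribosomal protein share separated the libraries further, with little overlap. Cells were divided at shares of 41.0% and 48.0%, which divide the pooled cells into 3 bands of equal number. The low band held 44 TGR and 1847 control cells, the middle band 712 TGR and 1179 control cells, and the high band 1790 TGR and 101 control cells. Within a band the libraries still differed in ribosomal protein share of UMIs. It was 37.1% under TGR and 37.7% in control in the low band. The share was 45.7% under TGR and 43.5% in control in the middle band, and 51.6% under TGR and 49.8% in control in the high band. The summed proteasome level was 5503 CPM under TGR and 8913 CPM in control in the low band, 4909 CPM under TGR and 6402 CPM in control in the middle band, and 4096 CPM under TGR and 5034 CPM in control in the high band. Members' medians were -0.58, -0.34 and -0.29, beside all-gene medians of 0.25, 0.03 and -0.03, and 13.6%, 14.6% and 4.6% of all scored genes were called higher. Psma2, Psmb2, Psmb3 and Psmb8 were called lower in all 3 bands. In the middle band, where both libraries had most cells in common, the 13 called lower were Psma2, Psmb2, Psmb3, Psmb5, Psmb6, Psmb8, Psmb10, Psmc1, Psmd1, Psmd3, Psmd12, Psmd13 and Psme3. Psmd5, a chaperone, was called higher there, with a log2 ratio of 0.70.

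Within the control library alone the proteasome level also differed with ribosomal protein share. In control cells of the middle band against those of the low band, 15 of 47 members were called lower and 0 higher, with a median log2 ratio of -0.49, against 3.52% of all scored genes lower, 0.451% higher and an all-gene median of -0.11. Per 1000000 UMIs outside ribosomal protein and mitochondrial genes, TGR cells had 9356, 9508 and 8928 proteasome UMIs in the low, middle and high band. Control cells had 15016, 11919 and 10610 on the same scale. The level in TGR cells thus varied little between bands, and control cells approached it as their ribosomal protein share was higher.

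**Figure D4:**
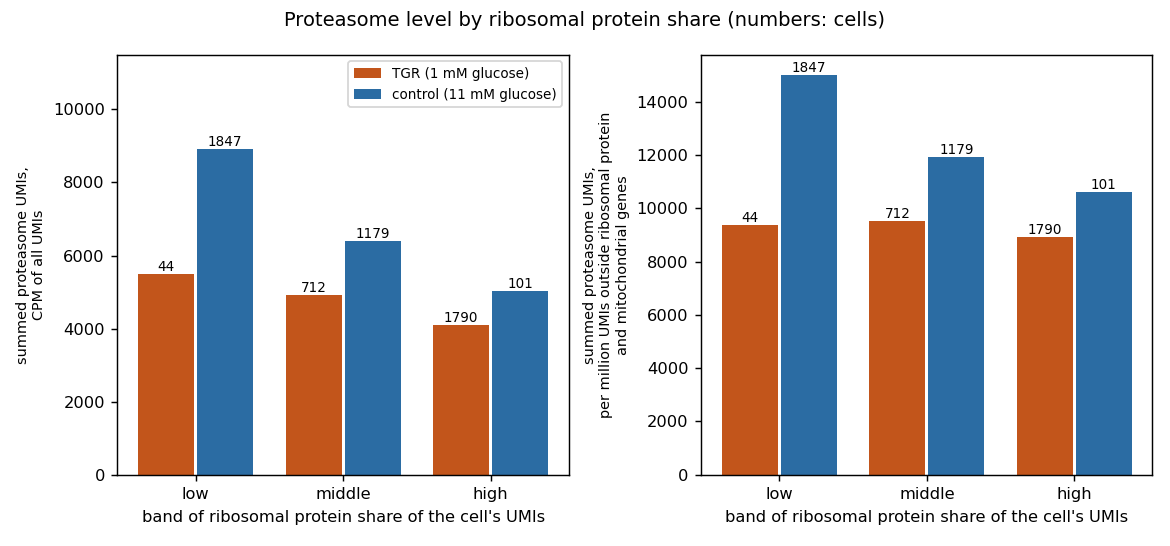
Summed proteasome level of TGR and control cells in 3 bands of ribosomal protein share, as CPM of all UMIs (left) and per 1000000 UMIs outside ribosomal protein and mitochondrial genes (right); numbers above bars are cells. In the left panel TGR cells lie between 5503 and 4096 CPM across the bands and control cells between 8913 and 5034 CPM.

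The shift was spread over the cells of the library. After thinning each cell to 1500 UMIs, the median cell held 6 proteasome UMIs under TGR (quartiles 5 and 9) and 11 in control (quartiles 8 and 14). Of TGR cells, 88.6% (2256 of 2546) lay below 11 UMIs, the control median. Of control cells, 44.8% (1361 of 3036) did, a share largely set by that choice of cut. Cells of 1 library are not replicates of a condition, so no interval is given. The medians were 7, 6 and 6 under TGR and 11, 12 and 11 in control in G1, S and G2/M. The mean was 6.78 with a standard deviation of 2.97 under TGR, and 11.7 with 4.80 in control. Variance over mean was 1.30 under TGR and 1.97 in control. Because the means differ, these values do not rank the libraries by relative spread. The unthinned means per cell, 33.2 under TGR and 36.6 in control, lay closer together, while TGR cells held more UMIs in all.

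**Figure D5:**
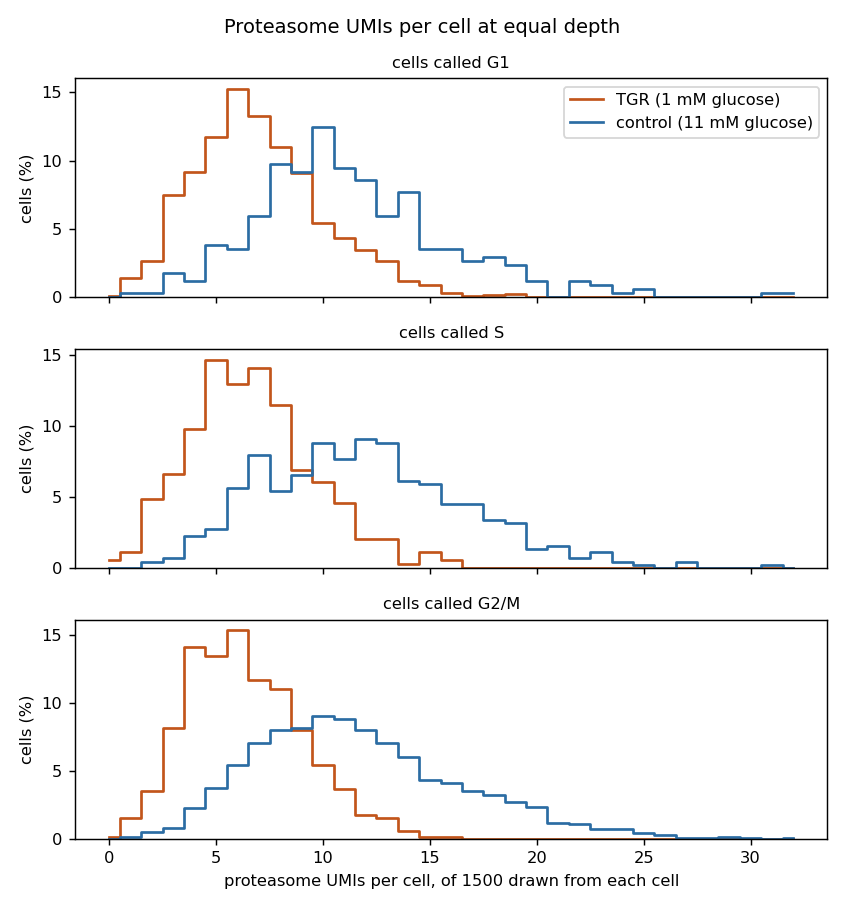
Percent of cells against proteasome UMIs per cell, of 1500 drawn from each cell, for TGR and control cells called G1, S and G2/M. The TGR distributions peak at lower counts in each phase, with medians of 7, 6 and 6 under TGR and 11, 12 and 11 in control.

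Most other genes of the pathway were called neither lower nor higher. Of 33 scored genes that bind, feed or regulate the proteasome, 3 were called lower and 2 higher, with a median log2 ratio of -0.09, against 21.8% of all scored genes called lower and 9.33% higher. The 3 lower genes all encode proteins that sit on or build the particle. Pomp, which matures the core, had 136 CPM under TGR and 365 CPM in control, 2.68-fold lower (interval 2.56 to 2.80). Uchl5, a deubiquitinase of the regulatory particle, had 32.6 CPM under TGR and 77.1 CPM in control, 2.36-fold lower (interval 2.14 to 2.61). Adrm1, the ubiquitin receptor that holds Uchl5, had 38.7 CPM under TGR and 70.6 CPM in control, 1.82-fold lower (interval 1.66 to 2.004). Shfm1, a small lid subunit with most UMIs among the 11 parts and partners of the particle in that list, had 429 CPM under TGR and 608 CPM in control, a log2 ratio of -0.50 that was not called, and Zfand5, which binds the particle, had a log2 ratio of 0.50.

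Ubiquitin itself and the factors that deliver substrates gave no such difference over all kept cells. Of ubiquitin and activation genes, 0 of 6 scored were called lower, and of shuttle and extraction factors 0 of 9, against 21.8% of all scored genes. The lists are short, and whether 0 differs from that share was not tested. Shuttle and extraction factors called lower numbered 1 of 10 in G1, 2 of 9 in S and 1 of 9 in G2/M. Of all genes, 20.3%, 19.1% and 21.3% were lower there. In the same phases 0, 1 and 1 of these factors were called higher, against 7.74%, 11.2% and 11.8% of all genes. In the middle UMI band, 4 of 9 shuttle and extraction factors were called lower and 1 higher, against 24.2% and 11.5% of all genes. In the low UMI band 0 of 8 were called lower, against 19.0% of all genes. Ubb, a ubiquitin gene, had 792 CPM under TGR and 847 CPM in control, and Rps27a, which encodes ubiquitin fused to a ribosomal protein, had 8189 CPM under TGR and 7808 CPM in control. Vcp, the ATPase that extracts substrates, had 93.3 CPM under TGR and 116 CPM in control. Faf1, a cofactor of Vcp, was called higher, with 37.0 CPM under TGR and 20.8 CPM in control, a ratio of 1.78 (interval 1.56 to 2.04), and Ubqln4, a shuttle, had a log2 ratio of -0.53.

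Among regulators, Nfe2l1 differed the other way from the genes it is known to drive. Nfe2l1, a transcription factor that raises proteasome genes when the proteasome is inhibited, had 40.5 CPM under TGR and 12.5 CPM in control, 3.23-fold higher (interval 2.76 to 3.82). Its levels in cells called G1 were 39.2 CPM under TGR and 8.40 CPM in control. Cells with and without an Nfe2l1 UMI held proteasome UMIs, out of 1500, with means of 6.48 and 6.80 under TGR (146 cells with and 2400 without) and 10.4 and 11.7 in control (51 with and 2985 without); no test was made over cells. Irf1, which drives the immunoproteasome genes under interferon, had 54.8 CPM under TGR and 49.8 CPM in control. Ddi2, the protease that activates the Nfe2l1 protein, had a log2 ratio of -0.35. Neighbours in the class I pathway, a list chosen after the data were seen, had 0 of 6 genes called in either direction, with B2m at 1449 CPM under TGR and 1577 CPM in control.

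Interferon response genes and the immunoproteasome did not differ in the same direction between libraries. The list of 8 interferon response genes summed to 321 CPM under TGR and 226 CPM in control. In cells with at least 3 UMIs of that list out of 1500, which numbered 91 under TGR and 33 in control, the 3 inducible subunits had ratios above 1 over the other cells of the same library, though not every interval left out 1. Psmb10 had 190 CPM in such TGR cells and 94.5 CPM in other TGR cells, a ratio of 2.02 (interval 1.30 to 3.00), and 1.67 in control (interval 0.948 to 2.72). Psmb8 gave ratios of 1.28 under TGR (interval 1.02 to 1.59) and 1.34 in control (interval 1.04 to 1.70). Psmb9 gave 1.43 under TGR (interval 0.961 to 2.05) and 1.63 in control (interval 1.004 to 2.5). The constitutive Psmb5 gave 1.07 under TGR (interval 0.529 to 1.95) and 1.02 in control (interval 0.488 to 1.89). Psmb8 stayed lower under TGR among the cells with the interferon signal, with 623 CPM under TGR and 1414 CPM in control, from 85 UMIs under TGR and 70 in control.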

How the data were processed

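Single-cell libraries were made on a 10x Genomics Chromium Controller (v2 chemistry), per the labels' protocols. Per the submitters' processing notes, Cell Ranger 2.2 and Seurat 3 were used with mm10; parameters, and the handling of strand and of reads that fit several genes, were not given in the sources used here. The deposited matrices hold whole-number UMI counts per gene and barcode, with no normalization by the authors.

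Counts of kept cells were summed per library (19696068 TGR and 14730128 control UMIs), scaled to CPM, and compared as log2 ratios after adding 0.5 UMI, in proportion to library size, to each library. Intervals of a fold are exact Clopper-Pearson intervals of the split of UMIs, and those of a ratio of ratios are exact conditional ones. They cover counting error only. Doublets were not called; an alternative leaves out the top 5% of cells by UMIs. Phases were called with scanpy 1.11.5 on cells thinned to 1500 UMIs. edgeR 4.0.16 and DESeq2 1.42.0 supplied scaling factors only. The calling script was tested on simulated data. Members at 10 CPM or more could be named; given in full were Psmb5 to Psmb10, Psme1 to Psme4 and, per group, the genes with the highest and lowest ratio and the most UMIs. The members and lists were chosen with earlier results of these data known. Coordinates are from GENCODE M21 (GRCm38) and promoters from RefSeq (GRCm38.p6). Some genes of the lists are not reported here.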

Additional observations from a re-analysis of the deposited data

How the results depend on the processing

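Leaving out a replicate was not possible with 1 library per condition, so no result could be checked against a second library. No paired analysis was possible because each condition has 1 library and no test was made. Over 17 planned settings and 3 added after the data were seen, the summed log2 ratio of the members (-0.86) stayed below 0. The changed minimum levels and the 2-fold call cannot alter this sum, so they are no check on it. It was -0.84 with DESeq2 size factors, -0.81 with TMM factors, -0.59 with totals without ribosomal protein and mitochondrial genes, -0.79 on thinned cells, -0.83 without the top 5% of cells, -0.78 in cells with a T cell marker and no other-lineage marker and -0.81 without Psmb8. It was -0.77, -0.95 and -0.92 in G1, S and G2/M, -0.63, -0.76 and -0.90 in the low, middle and high UMI band, and -0.70, -0.38 and -0.30 in the low, middle and high band of ribosomal protein share. Members lower (36) numbered 21 at 2-fold and 16, 13 and 5 in the ribosomal bands.

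The immunoproteasome over constitutive log2 ratio (0.19) was 0.28 in S, 0.12 in G2/M, 0.38 in the middle UMI band and 0.0268 in the middle ribosomal band, and turned to -0.16 in the low and -0.34 in the high ribosomal band. In the high ribosomal band, members lower numbered 1 in the alpha ring, 2 in the beta ring, 1 of the immunoproteasome, 1 in the base, 0 in the lid, 0 of the activators and 0 of the chaperones. In the middle band they numbered 1 in the alpha ring, 4 in the beta ring, 2 of the immunoproteasome, 2 in the base, 3 in the lid, 1 of the activators and 0 of the chaperones. In the low band they numbered 5 in the alpha ring, 5 in the beta ring, 2 of the immunoproteasome, 2 in the base, 2 in the lid, 0 of the activators and 0 of the chaperones. At 2-fold, 3 lid, 1 activator and 1 chaperone gene were lower. Chaperones lower numbered 1 in G1, 2 and 3 in the low and middle UMI band, 0 at a minimum of 50 CPM, where Psmg4 alone was scored and 34.2% of all genes were lower, and 2 with totals without ribosomal protein and mitochondrial genes, and 4 lid genes were lower in the low UMI band. Other pathway genes lower (3 of 33 scored) numbered 5 of 34 in G1, 5 of 32 in S and 6 of 33 in G2/M. Of all genes, 20.3%, 19.1% and 21.3% were lower there. They numbered 8 in the middle and 7 in the high UMI band, against 24.2% and 24.3% of all genes. In the high ribosomal band 1 was lower, against 6.8% of all genes.

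The 950 gene values include copies of the main values, which the changed minimum levels cannot alter. Of the 950, 46 had the opposite sign, 36 of them for 11 genes called neither lower nor higher, whose ratios lie nearer 0. Of those 36, 22 came from settings other than the ribosomal bands, as for Psmb1 (-0.09 in G1 and -0.11 in S), Psme1 (-0.05 in G2/M), Psmg4 (-0.03 in G2/M) and Psmd11 (0.05 in G1). The other 10 were of genes called lower, all in ribosomal bands: 0.21 for Psmb7, 0.00984 for Psmb9, 0.77 for Psmc3, 0.62 for Psmd10, 0.13 for Psmd6 and 0.20 for Psmg3 in the high band, 0.0152 for Psmd14 and 0.0413 for Psmg1 in the middle band, and 0.32 for Psmd14 and 0.56 for Psmg3 in the low band. The low band rests on 44 TGR cells and the high band on 101 control cells, which limits both. The cause of these differences was not tested.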
